A study of Homo sapiens with 4 samples.

Results

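DNA methylation of interferon-induced and viral RNA sensing genes was followed through erythroid differentiation and 2 inhibitor treatments of HUDEP-2, a human line of immortalised precursors of red blood cells. The set names 9 genes that hypomethylating agents are known to induce: ISG15, IFI27, IFI44, IFI44L, OAS1, MX1, IFIH1, IRF7 and IFIT1. The rule names them for that known induction and uses no methylation value, but the genes were chosen with earlier results of these data known. Each was measured over its promoter, from 1000 bp before to 500 bp after the transcript start, and over the rest of its transcript, called the gene body here. Of the 9 genes, 7 were measured. IFI27 and IRF7 were not analysed here. The 7 genes held 1305 CpGs read in all 4 libraries, 168 in promoters and 1137 in gene bodies, of 23269121 such CpGs in the genome.

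Whole-genome bisulfite sequencing reads a methylated cytosine as C and an unmethylated one as T, so a CpG's methylation level is the percent of its reads with C. Each group of this single line gave 1 library, 4 in all: untreated non-differentiated cells, and differentiated cells that received DMSO alone, an inhibitor of DNMT1 or an inhibitor of EED. DNMT1 is the enzyme that copies CpG methylation to new DNA strands, and EED belongs to the Polycomb complex, which places methyl groups on histone H3. The differentiated groups were kept in 0.1% DMSO, with or without compound, from expansion on, over a growth stage of 4 days and a maturation stage of 2, per the labels. Cells given either inhibitor made more fetal haemoglobin, per the labels. The compounds' names and doses are not given in the sources used here. The libraries averaged 27.2 to 29.7 reads at a listed CpG. Over all shared CpGs the DNMT1 inhibitor library read 16.8%, and the non-differentiated, DMSO and EED inhibitor ones 61.7%, 60.3% and 59.3%. With 1 library per group there is no spread between replicates, so every test below compares the reads of 2 libraries, not 2 conditions. Ranges in parentheses after a level are 95% Wilson intervals, those after a difference are Newcombe intervals, and both hold counting error alone. Read counts of a region are summed over its CpGs, so a read that covers several CpGs is counted at each. CpGs on 1 read are not independent, so these intervals, and the limits for counts of 0, are too tight over such regions. Where no read was methylated, the level that a count of 0 allows is given as 3 reads of the total, a rule that gives a smaller limit than the Wilson interval. RNA was not measured in these libraries. As a check of the labelled cell type, the promoter of the erythroid factor gene KLF1 read 2.12% in DMSO and that of the red cell membrane gene EPB42 read 4.31%, while the myeloid gene LYZ read 81.7%. The erythroid genes SLC4A1 and AHSP also had methylated promoters in DMSO, at 83.5% and 49.2%.

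Cells detect viral RNA in the cytoplasm with helicase sensors such as MDA5, the product of IFIH1. Sensing leads to secretion of interferons, which act through receptors, JAK kinases and STAT and IRF transcription factors. These factors bind the interferon-stimulated response element, or ISRE, of genes such as ISG15, IFIT1, OAS1 and MX1, whose products block viral replication. Drugs that lower DNA methylation are known to raise these genes in many cell types, an effect linked in the literature to double-stranded RNA from demethylated repeats.

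The stretches before the starts show how much these promoters differ in CpG content. They are RefSeq sequences (GRCh38.p14, sense strand, 5′ to 3′) with CpGs in capitals, and are limited to bases that no annotated exon covers, except for the short ones of MX1 and OAS1. All 7 measured genes had a RefSeq promoter entry. ISG15 is shown from −250 to −1 (chr1:1013247-1013496, plus strand), with 17 CpGs. IFIT1 is shown from −250 to −78 (chr10:89392373-89392545, plus strand), with 3. IFIH1 is shown from −150 to −1 (chr2:162318685-162318834, minus strand), with 8. For MX1, 30 bases from −58 to −29 (chr21:41426181-41426210, plus strand) hold 7 CpGs. For OAS1, the 30 bases before the start (chr12:112906932-112906961, plus strand) hold 1.
ISG15: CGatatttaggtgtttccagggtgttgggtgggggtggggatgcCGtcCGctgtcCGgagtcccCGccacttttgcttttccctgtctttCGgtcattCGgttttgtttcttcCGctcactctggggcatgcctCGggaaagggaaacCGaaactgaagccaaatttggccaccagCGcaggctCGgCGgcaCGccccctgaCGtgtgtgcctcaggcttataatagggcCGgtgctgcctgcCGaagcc
IFIT1: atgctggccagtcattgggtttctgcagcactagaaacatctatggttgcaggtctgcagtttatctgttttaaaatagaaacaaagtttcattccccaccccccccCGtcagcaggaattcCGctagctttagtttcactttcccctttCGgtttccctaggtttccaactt
IFIH1: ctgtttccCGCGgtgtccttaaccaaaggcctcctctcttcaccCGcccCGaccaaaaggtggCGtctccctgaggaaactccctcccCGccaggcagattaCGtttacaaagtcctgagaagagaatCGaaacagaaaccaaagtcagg
MX1: tCGCGgCGCGgggCGgggctgggCGCGggg
OAS1: cctcccttctgaggaaaCGaaaccaacagc

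In the DNMT1 inhibitor library all 7 measured promoters read lower than in DMSO, as did 17551 of the 18118 promoters tested. Those of the RNA-degradation activator OAS1, the ubiquitin-like ISG15, the RNA-binding IFIT1 and the neighbours IFI44 and IFI44L fell past the threshold. So did 43.7% of all promoters. Only IFI44L passed when each promoter's reads were divided by its number of CpGs, since CpGs on 1 read are not independent. MX1, a GTPase that blocks viral replication, kept the most methylation. The sensor gene IFIH1 read 2.19% in DMSO. Over whole promoters, methylation in the other 3 libraries was similar, with no member past the threshold for differentiation or for the EED inhibitor. Parts of the MX1 and ISG15 promoters differed more, as given below.

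IFI44L, an interferon-induced gene on chromosome 1, had the largest promoter difference over these spans, although ISG15 was ahead of it at a minimum of 20 reads per CpG (−52.9 against −44.8 points). Its promoter (chr1:78619448-78620948, hg38, 14 shared CpGs) read 48.3% before differentiation (43.2 to 53.5), 46.4% in DMSO (41.3 to 51.6), 6.04% under the DNMT1 inhibitor (4.06 to 8.90) and 41.7% under the EED inhibitor (36.8 to 46.7). The DNMT1 inhibitor library was thus the low one, with an interval that overlapped none of the other 3. The difference from DMSO was −40.4 points (−45.9 to −34.5). A two-sided Fisher's exact test on the reads, with Benjamini-Hochberg adjustment over 18118 promoters, gave an adjusted p of 1.40e-38. A region was called when this adjusted p was under 0.01 and the difference at least 25 points.

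OAS1 encodes an enzyme that, on binding double-stranded RNA, makes the messenger that activates RNase L. Its promoter (chr12:112905962-112907462, 8 CpGs) read 38.4% before differentiation, then 36.7% in DMSO, 7.0% under the DNMT1 inhibitor and 29.4% under the EED inhibitor, an order kept below. IFI44, the neighbour of IFI44L (chr1:78648831-78650331, 8 CpGs), read 46.4%, 38.7%, 9.35% and 37.3%. IFIT1, whose product binds viral RNA that lacks the host's cap methylation (chr10:89391623-89393123, 11 CpGs), read 39.1%, 35.9%, 7.67% and 43.1%. In all 3 genes, as in IFI44L, the DNMT1 inhibitor library was the lowest and its interval did not reach those of the others. How many promoters of other genes did so was not counted, but 17551 of the 18118 tested read lower than in DMSO. The differences from DMSO were −29.7 points for OAS1 (−37.1 to −22.3), −29.3 for IFI44 (−36.5 to −21.9) and −28.3 for IFIT1 (−34.4 to −22.0). Their adjusted p were 4.16e-15, 3.05e-14 and 3.49e-18 (Fisher's exact test), and each interval reached above −25 points. After that division of reads by CpGs, none of the 3 was called, at adjusted p of 0.0230, 0.0458 and 0.0298.

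ISG15 encodes a ubiquitin-like protein that is attached to other proteins after interferon. Its promoter (chr1:1012497-1013997, 41 CpGs) read 35.5%, 31.5%, 5.27% and 33.7%, and the difference of −26.2 points (−29.6 to −22.7) was just past the threshold (adjusted p 2.53e-50, Fisher's exact test). The call was lost with unweighted means over CpGs (−23.9 points) and after that division of reads by CpGs (adjusted p 0.0914, Fisher's exact test). With 2000 bp upstream the difference was −42.3 points, from 57.9% in DMSO to 15.6%. MX1 (chr21:41425239-41426739, 64 CpGs) read 32.01% (29.7 to 34.4), 34.4% (31.9 to 37.0), 14.9% (13.2 to 16.8) and 36.0% (33.9 to 38.2). Its difference, −19.5 points (−22.6 to −16.4), was short of 25 points and so not called, at an adjusted p of 1.29e-33 (Fisher's exact test). With the threshold at 10 points MX1 was called, and 68.2% of all promoters were.

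IFIH1, on the minus strand of chromosome 2, encodes the MDA5 sensor (chr2:162318184-162319684, 22 CpGs). Its promoter read 1.91%, 2.19%, 0% and 1.30%. The DNMT1 inhibitor library had no methylated read among 396, summed over the 22 CpGs. If these counted separately, that allows a level of up to 0.758% by the rule of 3 reads (Wilson upper end 0.961%). The difference of −2.19 points was not called (adjusted p 0.00445, Fisher's exact test). With 2000 bp upstream IFIH1 read 8.63%, 9.98%, 2.60% and 7.52%, a difference from DMSO of −7.38 points under the DNMT1 inhibitor, also not called.

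**Figure D1:**
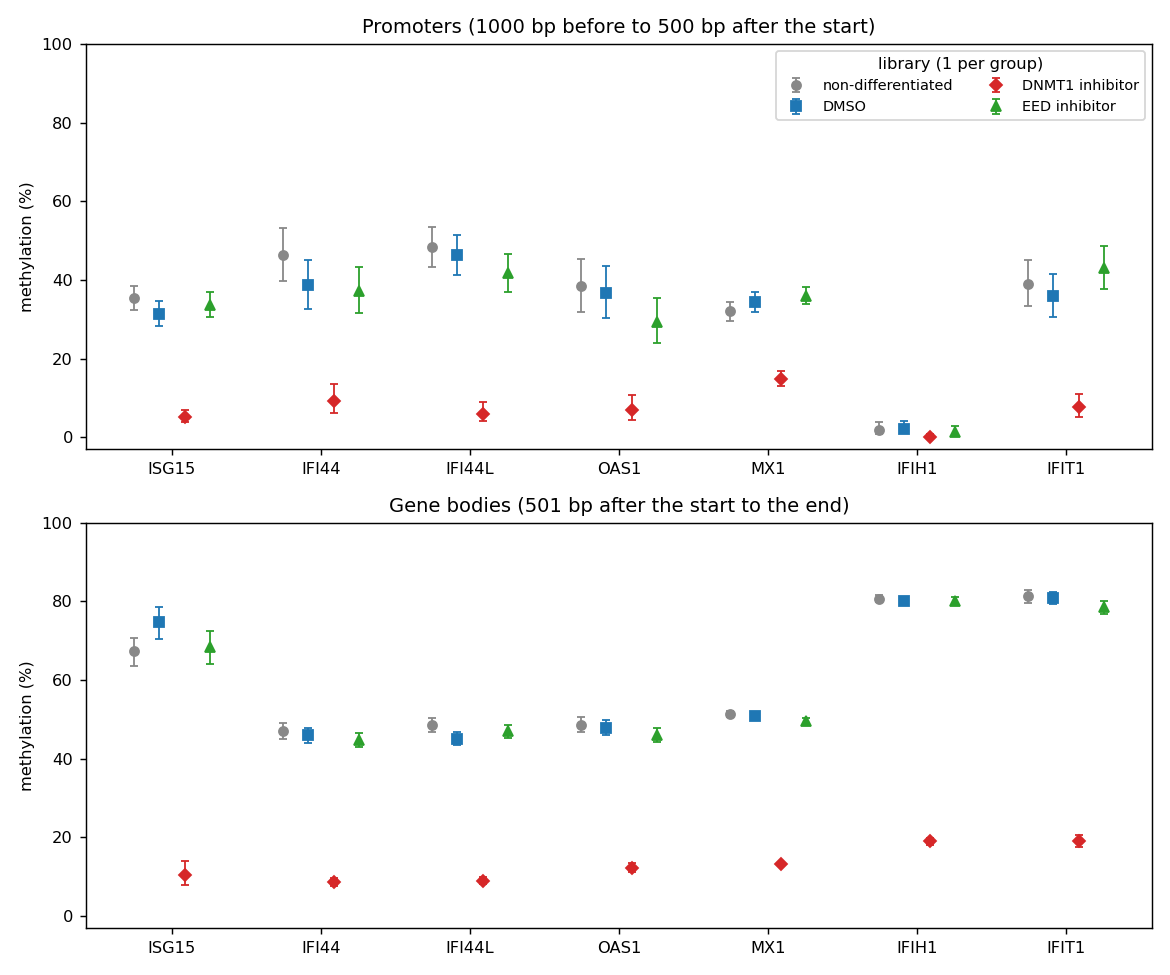
Methylation level (percent, vertical axis) of each measured gene in the 4 libraries, for promoters above and gene bodies below. Points are levels over shared CpGs and bars are 95% Wilson intervals for counting error, and the DNMT1 inhibitor library is the lowest for every gene, with IFIH1 near 0 in all 4 at its promoter.

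In all, 5 of the 7 measured promoters were called lower, beside 43.7% of the 18118 promoters tested, and the median difference of the 7 was −28.3 points beside −20.8 over all promoters. After that division of reads by CpGs, IFI44L alone was called, 1 of 7, beside 18.5% of all promoters.

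The level left with the DNMT1 inhibitor, as a share of the DMSO level, separated MX1 from the rest. It was 13.0% for IFI44L, 16.8% for ISG15, 19.1% for OAS1, 21.3% for IFIT1 and 24.2% for IFI44, and 43.2% for MX1. Over the 10698 promoters at 20% or more in DMSO the median share was 23.8%, with a 5th and 95th percentile of 10.4% and 45.4%. The first 5 genes lay near or under that median, and MX1 lay inside the upper end of the range.

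**Figure D2:**
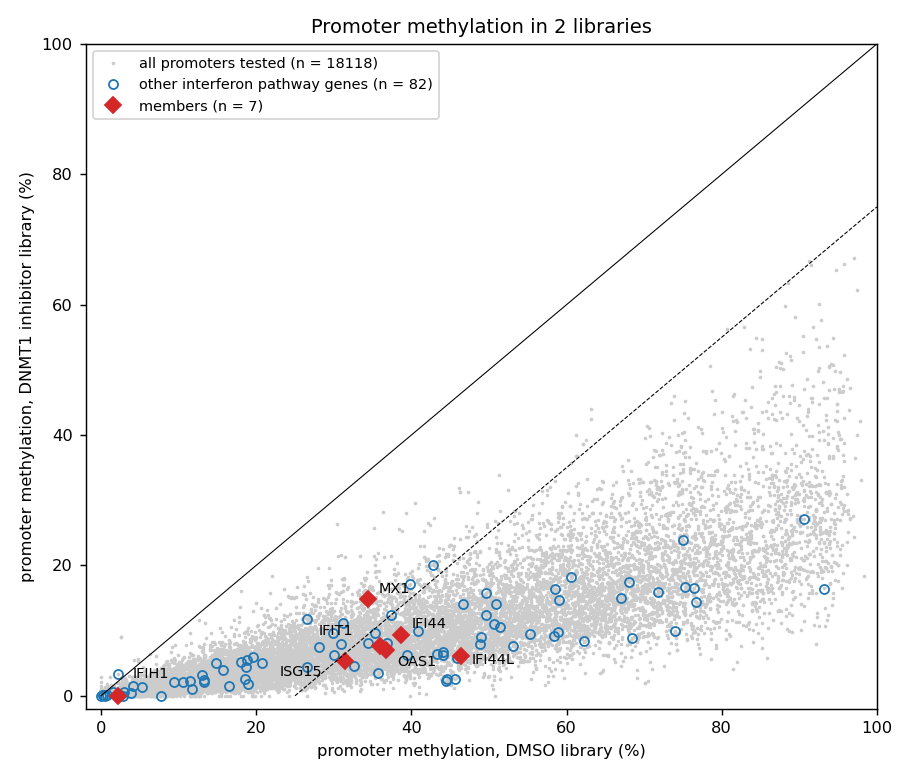
Promoter methylation (percent) in the DMSO library (horizontal axis) and the DNMT1 inhibitor library (vertical axis), 1 point per gene. The solid line marks equal levels and the dashed line a difference of 25 points: MX1 lies above the dashed line at 34.4% and 14.9%, IFIH1 lies near the origin at 2.19% and 0%, and the other 5 members lie below the line.

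Where the methylation sat within each promoter differed by gene. ISG15 was split sharply. Its 12 CpGs between −749 and −490 read 34.8% to 96.3% in DMSO and 3.23% to 26.9% under the DNMT1 inhibitor, and each of the 12 was called lower. The next CpG, at −410, read 0% in all 4 libraries. The 21 shared CpGs within 250 bp of the start, most of them in the sequence shown, read 0.262% before differentiation, 0.494% in DMSO and 0% under either inhibitor. Summed over the 21 CpGs, there were 442 reads for the DNMT1 inhibitor and 359 for the EED inhibitor. If these counted separately, 0 allows up to 0.679% and 0.836% by the rule of 3 reads (Wilson upper ends 0.862% and 1.06%). The start of ISG15 was therefore unmethylated in every library, and the 14 CpGs of its promoter that were called were the 12 farther upstream and those at +410 and +500. At a minimum of 20 reads per CpG, which removes most CpGs at the start, the ISG15 difference was −52.9 points.

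IFIT1 had the same layout with fewer CpGs. The 5 CpGs from −969 to −495 read 74.1% to 100% in DMSO and 8.00% to 28.6% under the DNMT1 inhibitor, and all 5 were called. From −267 on, no CpG exceeded 9.52% in any library. The 3 shared CpGs within 250 bp of the start read 0%, 1.05%, 0% and 1.11%. They are at −3, +67 and +205, outside the sequence shown.

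IFI44L and OAS1 fell between these patterns. In IFI44L the first 5 CpGs, from −971 to −641, were called lower and read 71.4% to 88.5% in DMSO. After the start, the CpGs at +54 and +64 read 4.17% or less in DMSO, while those at +129 and +159 read 34.5% and 82.8% and fell to 2.94% and 5.26%. In OAS1 the CpG at −13, inside the sequence shown, read 3.85% of 26 reads before differentiation and 0% in the other libraries. The OAS1 CpGs at −668 and +498, at 90.9% and 89.3% in DMSO, read 12.1% and 26.2% with the DNMT1 inhibitor. IFI44 has no CpG within 250 bp of its start, and its 4 called CpGs were at −620, +397, +431 and +470.

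IFIH1 was low throughout. The 8 shared CpGs within 250 bp of its start, at −209, −206 and from +51 to +242, all lie outside the sequence shown. They had no methylated read in any library, at 90 to 126 reads summed over the 8 CpGs, with 10 to 24 at each. If these counted separately, that allows 2.38% to 3.33% by the rule of 3 reads (Wilson upper ends 2.96% to 4.09%). CpGs that share reads allow more. The highest CpG of the IFIH1 promoter in DMSO was at −549, at 13.9% of 36 reads, and it read 0% of 29 reads with the DNMT1 inhibitor. Only 22 of the 50 CpGs of this promoter in the reference were listed in all 4 libraries, so most were not compared.

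**Figure D3:**
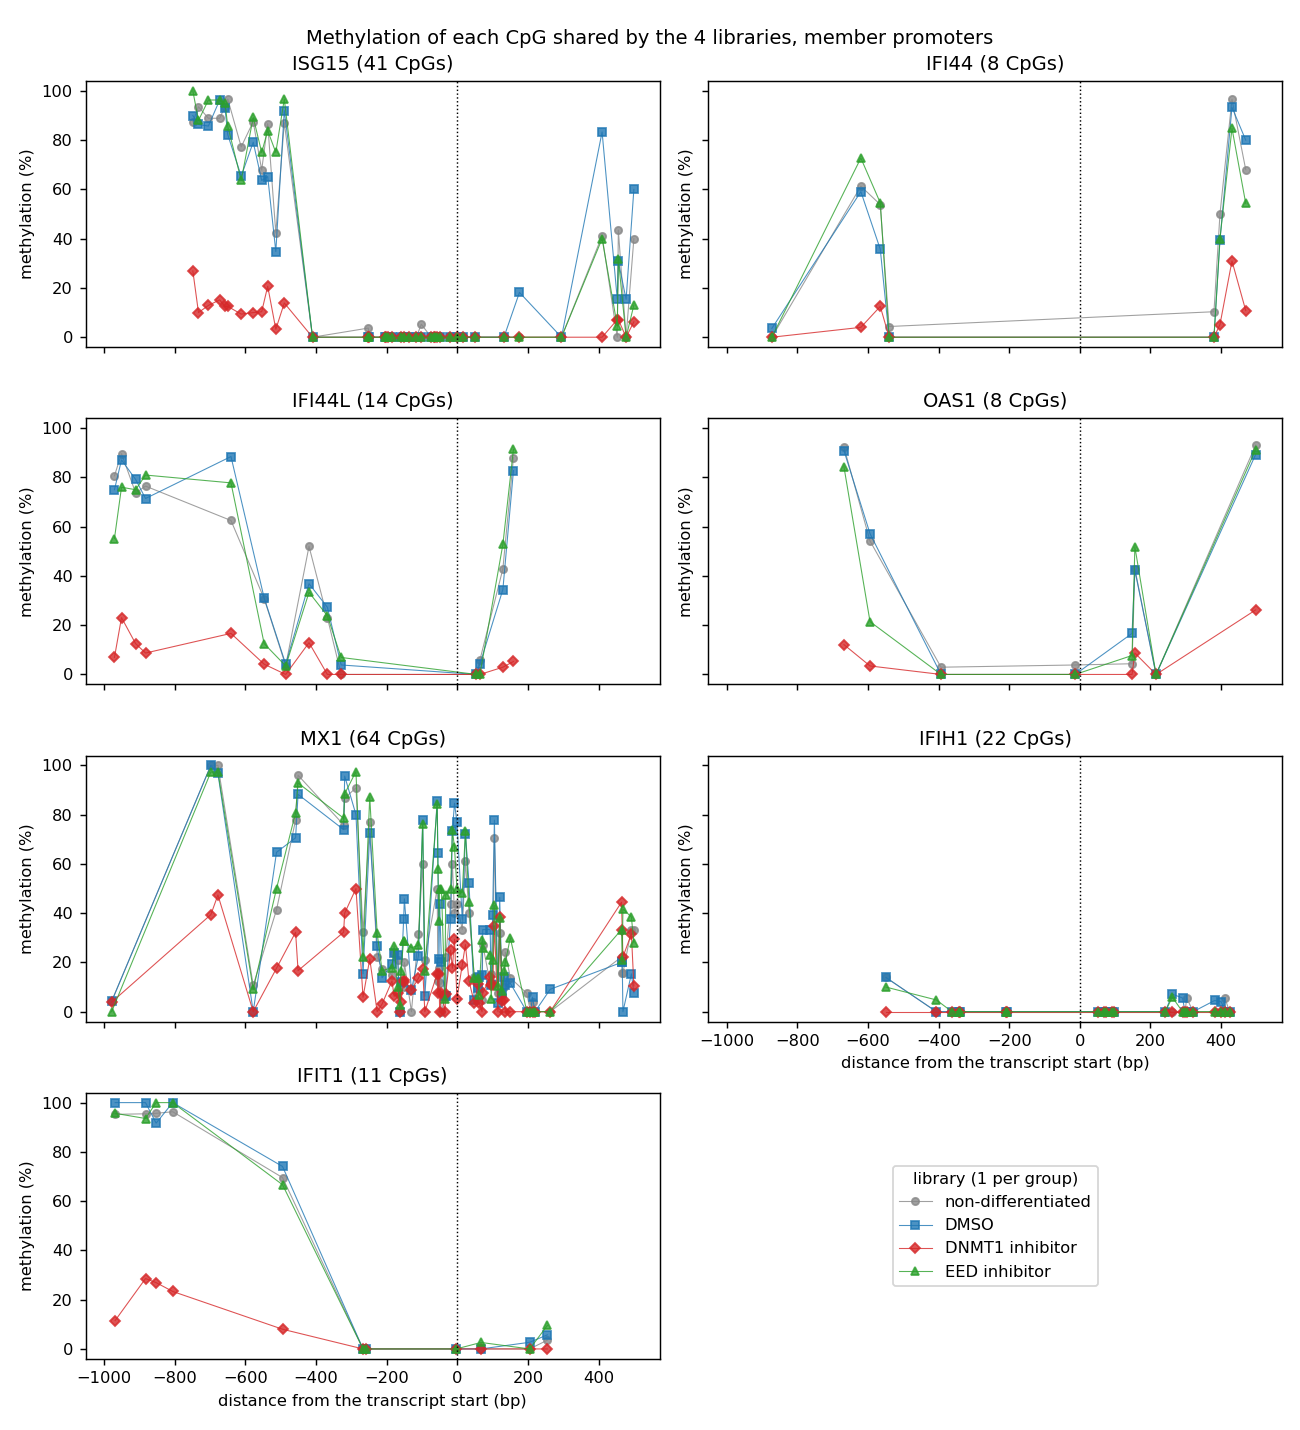
Methylation (percent, vertical axis) of each of the 168 promoter CpGs against distance from the transcript start in bp (horizontal axis, dotted line at the start), 1 panel per gene and 1 colour per library. In ISG15 and IFIT1 the CpGs near the start lie at or near 0 in all 4 libraries and the upstream ones fall in the DNMT1 inhibitor library, while MX1 is methylated up to and across its start.

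MX1 had the most CpGs near its start, and many of them were methylated. Its 47 shared CpGs within 250 bp read 21.7% before differentiation (19.3 to 24.4), 28.2% in DMSO (25.5 to 31.1), 9.75% under the DNMT1 inhibitor (8.10 to 11.7) and 29.3% under the EED inhibitor (27.0 to 31.7). In the same window in DMSO, the 4 CpGs of IFI44L read 33.0% and the 4 of OAS1 read 14.4%. Over all 11209 promoters with at least 5 shared CpGs in this narrower window, the median in DMSO was 1.02%, and 60.3% of them read under 5%. A further 22.8% read from 20% to under 80%, as MX1 did, and 5.9% read 80% or more. Levels changed from one CpG to the next. In the sequence shown, the CpG at −57 read 50.0%, 85.7%, 15.4% and 84.2%, and the one at −35 read 5.88%, 6.25%, 0% and 5.26%, at 13 to 19 reads each. The CpG at −55 read 12.5% of 16 reads, 64.3% of 14, 7.69% of 13 and 57.9% of 19, so the non-differentiated library was low there beside DMSO and the EED inhibitor. This CpG was picked out after its values were seen. DMSO against the non-differentiated library was not called there (unadjusted p 0.00683, Fisher's exact test).

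Upstream of this stretch, the 11 MX1 CpGs from −979 to −267 read 67.6%, 65.7%, 27.1% and 68.6%. Several stayed well above the genome level of the DNMT1 inhibitor library: the CpG at −678 read 96.8% in DMSO and 47.4% of 38 reads with the inhibitor, and the one at −287 read 80.0% and 50.0% of 36 reads. The 6 CpGs from +263 to +500 read 20.5%, 11.9%, 25.5% and 28.8%, and were the stretch of a member promoter that read higher with the DNMT1 inhibitor than in DMSO, at 10 to 13 reads per CpG in DMSO. None of these 6 was called. Of the 82 reference CpGs of the MX1 promoter, the DMSO library listed 65 and the other libraries 77 to 81, so DMSO set which CpGs were shared. With all CpGs each library listed, MX1 read 34.1% in DMSO and 14.7% under the DNMT1 inhibitor.

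RefSeq gives MX1 other starts. Around the one at −5681 bp, 16 shared CpGs within 250 bp read 10.6%, 9.57%, 1.87% and 13.3%. Around the one at +5811 bp, 11 CpGs read 37.5%, 35.9%, 8.12% and 31.4%. Both were lowest in the DNMT1 inhibitor library, and the upstream start was the least methylated of the 3 in each library.

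By single CpG, 48 of the 168 promoter CpGs were called lower with the DNMT1 inhibitor, or 28.6%, beside 63.6% of all CpGs in the genome. All CpGs include those outside promoters, and the share over promoter CpGs of all genes was not counted. Over all genes in DMSO the median promoter read 27.5% and the median body 75.4%. None of the 168 was called higher, beside 4.3e-06% of all CpGs. ISG15 had 14 of 41, MX1 15 of 64, IFI44L 7 of 14, IFIT1 5 of 11, IFI44 4 of 8, OAS1 3 of 8 and IFIH1 0 of 22. Many of the others read at or near 0% in DMSO, as at the start of ISG15. Others fell without a call at few reads. The MX1 CpG at −50, for example, read 43.8% of 16 reads in DMSO and 0% of 13 with the DNMT1 inhibitor. In the MX1 promoter 50 of 64 CpGs were lower with the inhibitor.

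ISRE-like letters lie next to or over some of these CpGs. The motif searched was GAAANNGAAA on both strands, so its reverse complement TTTCNNTTTC counts too, and overlapping matches were counted separately. It occurred in 16.6% of all promoters of the same length and in 3.29% of windows from −250 to +50. Of the 7 measured promoters 6 held a match, all but MX1, and 5 held one in the shorter window. A match describes letters and is not evidence that a factor binds. The matches nearest the starts are shown with their letters in capitals and 5 bases on either side, on the gene's strand. For ISG15 they run from −113 to −98 (2 overlapping matches), for IFIT1 from −103 to −94, for IFIH1 from −21 to −12, for IFI44 from −60 to −51 and for IFI44L from −73 to −64.
ISG15: ctcggGAAAGGGAAACCGAAActgaa
IFIT1: tccccTTTCGGTTTCcctag
IFIH1: gaatcGAAACAGAAAccaaa
IFI44: ctgagTTTCAGTTTCctttc
IFI44L: gtgagGAAAAAGAAAgttag

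The CpG inside the ISG15 match, at −102, had 1 methylated read of 19 before differentiation and none of 21, 19 and 13 in the other libraries. The CpG inside the IFIT1 match, at −100, was listed in the non-differentiated and EED inhibitor libraries only, with no methylated read of 14 and 13. At the edge of the IFIH1 match, the CpG had no methylated read of 15 in each of the DMSO, DNMT1 inhibitor and EED inhibitor libraries. Apart from the single ISG15 read, no methylated read was seen at these 3 CpGs in any library that listed them. The matches of IFI44 and IFI44L hold no CpG. The single OAS1 match, from −501 to −492, has its nearest CpG at −594, which read 54.2%, 57.1%, 3.45% and 21.4%. The OAS1 sequence shown also holds gaaaCGaaa, with 1 base between its GAAA units. Spacings other than that of the motif were not searched in any gene, so this was not counted as a match. Its CpG, at −13, read 3.85% of 26 reads before differentiation and 0% in the other libraries.

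Gene bodies lost methylation in all 7 genes with the DNMT1 inhibitor, and all 7 were called lower, beside 96.2% of the 18725 gene bodies tested. IFIT1, with 2 exons (80 CpGs), read 81.3%, 80.9%, 19.1% and 78.5%. IFIH1, with 16 exons (275 CpGs), read 80.7%, 80.2%, 19.0% and 80.2%. ISG15, with 2 exons and 27 CpGs, all of them in exonic sequence, read 67.3%, 74.7%, 10.53% and 68.4%. These 3 had bodies near or above the median over all genes in DMSO, 75.4%.

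The other 4 had bodies near 50%. IFI44 (97 CpGs) read 47.1%, 45.9%, 8.65% and 44.6%, and IFI44L (113 CpGs) 48.7%, 45.1%, 8.99% and 47.0%. OAS1 (97 CpGs) read 48.7%, 47.9%, 12.3% and 46.0%. MX1, with 17 exons and 448 CpGs, read 51.4%, 50.9%, 13.2% and 49.7%. Their starting level was lower than that of most genes, and so were their differences of −35.6 to −37.6 points. The median over the 7 was −37.6 points beside −54.0 over all bodies. The share of the DMSO level left lay between 14.1% for ISG15 and 26.0% for MX1, beside a median of 26.5% over 18387 bodies, so in its body MX1 was close to that median.

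Each body level matched its surroundings to some degree. Within 50 kb on either side, beyond 1000 bp from the transcript, DMSO read 39.8% around IFI44, 40.0% around IFI44L, 43.9% around OAS1 and 48.3% around MX1. It read 67.9% around IFIH1, 68.7% around IFIT1 and 74.9% around ISG15. In the DNMT1 inhibitor library the same surroundings read 6.91% to 11.3% for the first 4 genes and 15.9% to 25.2% for the last 3. IFI44 and IFI44L share much of this region, so their values are not independent.

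Single CpGs of the bodies showed what these averages hold. In DMSO, 73.8% of the IFIH1 CpGs and 65.0% of the IFIT1 CpGs were at 80% or more, but 27.2% in MX1, 28.9% in OAS1, 31.9% in IFI44L and 20.6% in IFI44. In the DNMT1 inhibitor library no body CpG of any of the 7 genes reached 80%, and the share at 20% or less ran from 60.4% in IFIH1 to 87.6% in IFI44. Of the 1137 body CpGs 784 were called lower, or 69.0%, beside the 63.6% of all CpGs, and none higher. By gene this was 48.5% in OAS1 at the low end and 89.8% in IFIH1 at the high end.

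**Figure D4:**
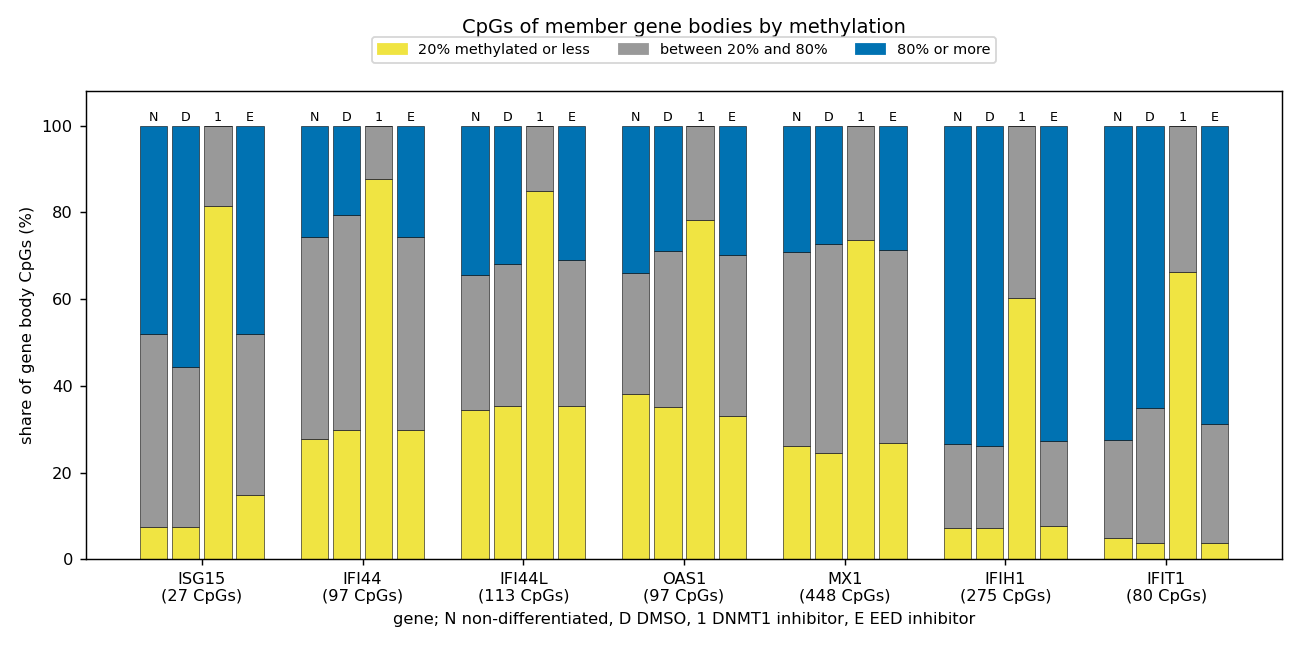
Share of gene body CpGs (percent, vertical axis) at 20% methylation or less, between 20% and 80%, and at 80% or more, for each gene and library. No CpG at 80% or more is left in the DNMT1 inhibitor library, and IFIH1 and IFIT1 start with the most of them.

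The order of exons and introns differed between genes. In MX1, exonic CpGs read 64.4% in DMSO and 19.3% under the DNMT1 inhibitor, and intronic ones 47.5% and 11.8%. OAS1 likewise read 60.0% in exons and 45.2% in introns in DMSO. In IFIH1 and IFI44L the order was reversed, with 64.3% and 37.6% in exons and 82.8% and 48.3% in introns. Along IFI44L, cut into 5 equal stretches, DMSO read 61.9% in the first and 29.2% in the last, and the DNMT1 inhibitor library 14.1% and 2.15%.

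Differentiation, here the DMSO library against the non-differentiated one, left the 7 promoters with no call. Of the pair, only the DMSO library is labelled with 0.1% DMSO, so DMSO and differentiation cannot be told apart. No promoter of any gene was called in either direction for differentiation (0% of 18118). The member differences, DMSO minus non-differentiated, ran from −7.68 points in IFI44 (−16.8 to 1.58, Newcombe interval) to 2.40 points in MX1 (−1.09 to 5.90), with a median of −1.95 beside −0.251 over all promoters. None of the 7 had an unadjusted p under 0.05 by Fisher's exact test, and the lowest adjusted p was 0.361. At the depth of the IFI44 promoter, with 8 CpGs, its difference could not be told from counting error. Within 250 bp of the MX1 start, a zone picked out after its values were seen, the intervals did not overlap. It read 21.7% before differentiation (19.3 to 24.4) and 28.2% in DMSO (25.5 to 31.1). Those intervals sum reads over 47 CpGs, which are not independent where they share reads, so they are too narrow. In gene bodies none was called either (0% of 18725), and ISG15 and IFI44L had unadjusted p under 0.05, with differences of 7.39 points (1.85 to 12.7) and −3.56 points (−6.05 to −1.07). Their adjusted p were 0.0262 and 0.0155 (Fisher's exact test).

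With the EED inhibitor no member promoter was called, beside 0% called lower and 0.0221% called higher over all promoters. OAS1 had the lowest difference, −7.32 points (−16.1 to 1.53), and IFIT1 the highest, 7.20 points (−0.577 to 14.8). The median was −0.894 beside 0.00915 over all promoters. No unadjusted p was under 0.05, and the lowest adjusted p was 0.315 (Fisher's exact test). In bodies 0 of 7 were called, beside 0% in either direction, and ISG15, MX1 and IFIT1 had unadjusted p under 0.05, with differences of −6.27, −1.22 and −2.44 points and a lowest adjusted p of 0.0797 (Fisher's exact test). Neither comparison called any of the 1305 CpGs. By single CpG, 4 of the 168 promoter and 36 of the 1137 body CpGs had an unadjusted p under 0.05 for differentiation (Fisher's exact test). For the EED inhibitor these counts were 9 and 70. The share of all CpGs under that unadjusted p was not counted, so these counts have no background. At the stricter threshold for a call, 0% of all CpGs passed for differentiation. For the EED inhibitor 0.00374% of all CpGs were called lower and 0.000623% higher. Both inhibitor comparisons share the DMSO library.

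Other genes of the pathway were taken from a list of 89, of which 82 promoters had at least 5 shared CpGs. With the DNMT1 inhibitor 41 of 82 were called lower, beside the 43.7% of all promoters, and none higher, with a median of −25.3 points. All 6 ligand promoters tested were called. IFNK, a type I interferon of keratinocytes, fell from 93.2% in DMSO to 16.5%, the largest change of the list. The ligands' median was −41.1 points.

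Among receptors and kinases 3 of 9 were called. The interferon gamma receptor gene IFNGR2 fell from 90.6% to 27.1%, while the promoter of IFNAR1, a subunit of the type I interferon receptor, read 0.284% and 0.0704% over 112 CpGs. IL10RB read 31.2% and 11.2%, and IFNLR1 29.9% and 9.60%, both short of 25 points. Both encode subunits of the type III interferon receptor.

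Among sensors and adaptors 8 of 16 were called. The DNA sensor gene AIM2 fell from 76.4% to 16.5%, and DHX58, which encodes the RNA helicase LGP2, fell from 71.8% to 15.9%. The RNA sensor gene RIGI read 2.95% and 0.583% over 46 CpGs, a low start shared with IFIH1. Among transcription factors 2 of 8 were called. IRF3 read 3.83% and 0.409% over 61 CpGs, and IRF8 read 26.5% and 11.8%, with the smallest difference among promoters at 20% or more.

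Of effectors and other induced genes 21 of 40 were called. The chemokine gene CXCL11 fell from 73.9% to 9.90%, and TRIM22, a restriction factor gene, from 68.5% to 8.85%. The membrane antiviral genes IFITM1 and IFITM2 fell from 75.3% to 16.6% and from 76.7% to 14.3%. IFIT2, a relative of IFIT1, read 20.7% and 5.09%, and MX2, a relative of MX1, read 28.1% and 7.49%, and neither was called. Among negative regulators 1 of 3 was called. In all, 12 of the 82 promoters read under 5% in DMSO. In gene bodies 82 of 83 tested were called lower, beside the 96.2% of all bodies.

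Neither differentiation nor the EED inhibitor gave a call in the list. SOCS1, a feedback inhibitor of cytokine signalling, had the largest difference in both, reading 28.9% before differentiation, 7.69% in DMSO and 26.0% under the EED inhibitor over 6 CpGs. The adjusted p were 0.0206 and 0.0260 (Fisher's exact test). Both values rest on the low DMSO library. Next for differentiation came SAMD9, from 33.8% to 45.6%, and SAMD9L, from 51.3% to 39.9%. For the EED inhibitor they were IRF9, a partner of the STAT factors at the ISRE, at 55.2% in DMSO and 43.0%, and PLSCR1, at 49.7% and 38.1%. By Fisher's exact test, all 4 had an adjusted p above 0.01. Smaller differences in promoters with more CpGs passed that value but were short of 25 points, and these genes were picked out after their values were seen. For differentiation they were the DNA sensor gene CGAS, from 48.1% to 37.3% over 74 CpGs (adjusted p 1.37e-08, Fisher's exact test), and USP18, whose product removes ISG15 from proteins, from 37.6% to 26.6% over 68 CpGs (adjusted p 6.26e-08). For the EED inhibitor it was STING1, the adaptor downstream of CGAS, at 30.1% in DMSO and 40.1% (adjusted p 0.00885, Fisher's exact test). These tests sum reads over CpGs that are not independent, and no value after division of reads by CpGs is given for these genes. How many of all promoters passed that adjusted p without the limit of 25 points was not counted.

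**Figure D5:**
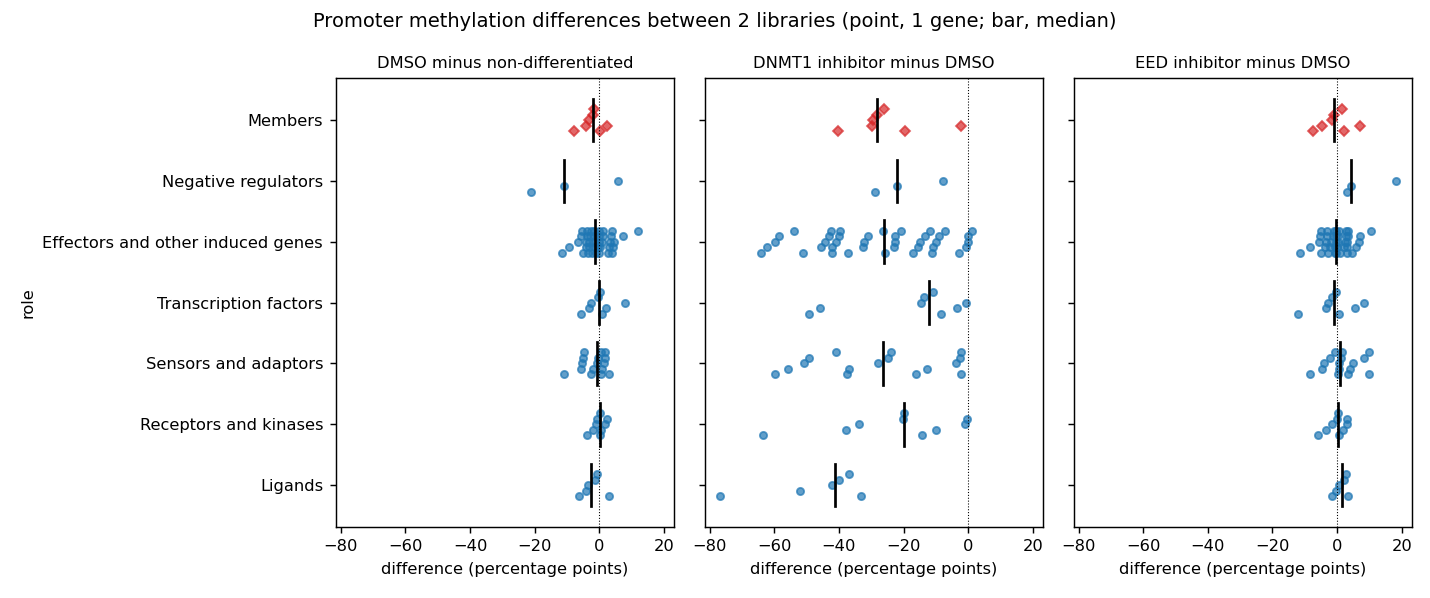
Difference of promoter methylation between 2 libraries (percentage points, horizontal axis) by role of the gene (vertical axis), with 1 point per gene and a bar at the median. In the middle panel the 6 ligands lie at −33.3 points or lower and the members have a median of −28.3, while points of the other panels lie between −21.3 and 18.3.

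Some other promoters had nearly the same profile over the 4 libraries as IFI44L, OAS1 and IFI44, the 3 members with the largest differences over the promoter span used here. ISG15 passed IFI44 at a minimum of 20 reads and with 2000 bp upstream. Nearest to IFI44L were GPAT4 and TMC2, with root mean square differences of 0.803 and 0.950 points over the 4 libraries. Nearest to OAS1 were PITX1 and SANBR, at 0.387 and 0.713 points, and nearest to IFI44 were RHBDF2 and PKP2, at 0.616 and 0.899 points.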

How the data were processed

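The data are 4 HUDEP-2 libraries made by bisulfite sequencing of the whole genome, 1 per group. Genomic DNA with 0.5% lambda DNA was converted and made into Accel-NGS Methyl-Seq libraries, per the labels' protocols. Trim Galore 0.6.7, cutadapt 4.1, Bismark, Bowtie2 2.1.0, methylKit and hg38 are named in the submitters' processing notes, and duplicate removal is not given in the sources used here. The tables deposited by the authors give for each CpG a coverage count of reads, at least 10, with both strands merged, per the file headers and values. They also give the deposited percent of reads with C and with T, rounded to 1 decimal. Methylated counts were recovered by rounding, and all were whole within 0.0005 of the coverage. CpGs under 10 reads are missing. Conversion was not measured here.

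CpGs of chromosomes 1 to 22 and X listed in all 4 libraries were used. Levels are methylated over all reads, so deeper CpGs weigh more. Starts were those of MANE Select transcripts in GENCODE 44 (19016 genes; Ensembl canonical for 954). Fisher's exact test, two-sided, was run on the summed reads of each region with at least 5 shared CpGs and on each single CpG, with Benjamini-Hochberg adjustment over all of them (Python 3.11.15, scipy 1.17.1), with code tested on simulated data. The members, the pathway list and the cell type markers were chosen with earlier results of these data known. The pathway genes named are the 8 called promoters with the largest DNMT1 inhibitor difference, the 5 at 20% or more in DMSO with the smallest, the 3 under 5% with the most CpGs, and the 3 largest differences of each other comparison. Alternatives varied the promoter and body limits, coverage, weighting, thresholds and reference library.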

Additional observations from a re-analysis of the deposited data

How the results depend on the processing

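No paired analysis was possible because each group has 1 library. For the DNMT1 inhibitor, 5 of 7 promoters were called, and 4 to 6 were called under 8 of the 10 alternatives. The exceptions were a window of 250 bp on either side of the start, with 0 of the 3 promoters tested, where 22.3% of all promoters were called, and reads divided by the number of CpGs, with 1 of 7. In the narrow window the differences were −0.494 points for ISG15, 0 for IFIH1 and −18.5 for MX1. Unweighted means over CpGs put ISG15 at −23.9 points, under the threshold. At a minimum of 20 reads IFIH1 could not be tested at its promoter nor ISG15 in its body, and the other 6 bodies were called. All other alternatives called 7 of 7 bodies. Called CpGs numbered 832 of 1305, and 666 of 955 at a minimum of 20 reads. No alternative called a promoter, body or CpG of a member for differentiation or the EED inhibitor. Their median promoter differences were small and changed sign for differentiation, to 1.35 points with 2000 bp upstream, 0.232 in the narrow window and 0.461 with unweighted means, and for the EED inhibitor, to 0.524 with 2000 bp upstream. In the narrow window the EED inhibitor median was 0. Depth limits these comparisons: the interval of the OAS1 difference for the EED inhibitor, over 8 CpGs, ran from −16.1 to 1.53 points.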
